A study of Mus musculus with 60 samples.

Results

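The 10 genes described here act in the uptake and storage of fat, and they were selected on their levels 9 months after irradiation, where Cd36 and several others had been seen to be high in control livers and lower in irradiated ones. They are 10 of the 38204 genes in the deposited table, and 9 of them reached 0.5 RPKM in at least 3 of the 60 libraries; Cidea did not. RPKM counts reads relative to the length of a transcript and to the mapped reads of its library, and every level below is the sum over a gene's transcripts, rescaled between libraries by a trimmed mean (scaled RPKM).

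The livers came from male mice of the inbred strain C3H/HeNCrl, which is kept for work on liver cancer, and RNA of the left lobe was sequenced after ribosomal RNA had been depleted. The mice were 8 to 10 weeks old when they received 0.2 Gy to the whole body of 56Fe (600 MeV per nucleon), 16O (1 GeV per nucleon) or 28Si (350 MeV per nucleon), or no radiation. Livers were taken at 30, 60, 120, 270 and 360 days, called 1, 2, 4, 9 and 12 months here, with 3 mice in each of the 20 groups. No mouse was sampled more than once, and the 3 controls of a time were shared by the comparisons with all 3 ions. No genotype was altered and no treatment other than the ions is named in the labels.

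Fat in a liver cell is kept in droplets, a core of triglyceride inside a phospholipid layer studded with proteins. CD36 brings long-chain fatty acids across the plasma membrane, FITM1 and FITM2 act in the endoplasmic reticulum where droplets form, perilipins coat the droplet and control the access of lipases, CIDE proteins pass lipid between droplets or onto lipoproteins, and G0S2 inhibits the triglyceride lipase ATGL. Several of these genes are known targets of the PPAR family of fatty acid receptors, and their levels change with feeding and time of day.

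Depth ran from 11412664 to 40568209 mapped read pairs per library. The hepatocyte markers summed to between 26851 and 49238 scaled RPKM, while the 12 skeletal muscle markers summed to at most 2.96. The 11 adipocyte markers summed to 232 to 3271, most of it Car3, at 211 to 3249, which hepatocytes also express. Of the others Adrb3 reached 20.1, Fabp4 17 and Lipe 2.56, while Adipoq was at most 0.480 and at 0 in 31 libraries, Plin1 at most 0.561 and Cfd at 0 in 55. In these bulk samples, fewer cells of a type and less RNA per cell cannot be told apart. The libraries of 1 and 2 months differed from the later ones. The table held 43.4% to 66.4% of their mapped reads against 56.0% to 88.4% later, with some overlap, and mitochondrial transcripts, with none, were 4.57% to 13.3% of the table's reads against 1.33% to 3.90%.

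Over the 60 libraries Plin2, the perilipin of the liver's ordinary droplets, was the most abundant of the 10 genes, at 57.7 to 296 scaled RPKM (median 118). Cideb, which acts in the lipid loading of very low density lipoprotein, followed at 14.7 to 64.5 (median 33.6). Fitm2, the widely expressed FIT protein, ran from 5.78 to 15.2 (median 9.75), and Plin5, which ties droplets to mitochondria, from 4.93 to 14.5 (median 8.46). The ranges of these last 2 genes overlapped over most of their length, so their order differs between libraries. Cd36 had a median of 3.84 with a high of 56.4, a 32.4-fold distance from its lowest library at 1.74. Fitm1, at 0.647 to 12.9 (median 2.83), and G0s2, at 0.117 to 7.95 (median 2.01), overlapped with it. Plin4 (median 0.531), known from adipocytes and muscle, and Cidec (median 0.376), the fusion protein of large droplets, were low, Cidec resting on a median of 9 reads. Cidea, a brown fat gene, was at 0 in 39 libraries and at a single read in 14 others, where 3 reads would be worth 0.0583 to 0.238 scaled RPKM.

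All 10 are protein-coding genes. On GRCm38 Plin2 spans chr4:86648386-86670060, G0s2 chr1:193272161-193273217, Fitm1 chr14:55575617-55576954, Fitm2 chr2:163466379-163472629 and Cideb chr14:55754050-55758458. Plin4 and Plin5 are neighbours at chr17:56100591-56109803 and chr17:56111601-56117596, and Cidec lies at chr6:113424634-113435760. The whole of G0s2 lies inside the span of Lamb3 on the opposite strand, with 0 exon bases in common. Fitm1 shares 109 of its 971 exon bases and Fitm2 227 of 3967 with antisense genes.

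**Figure D1:**
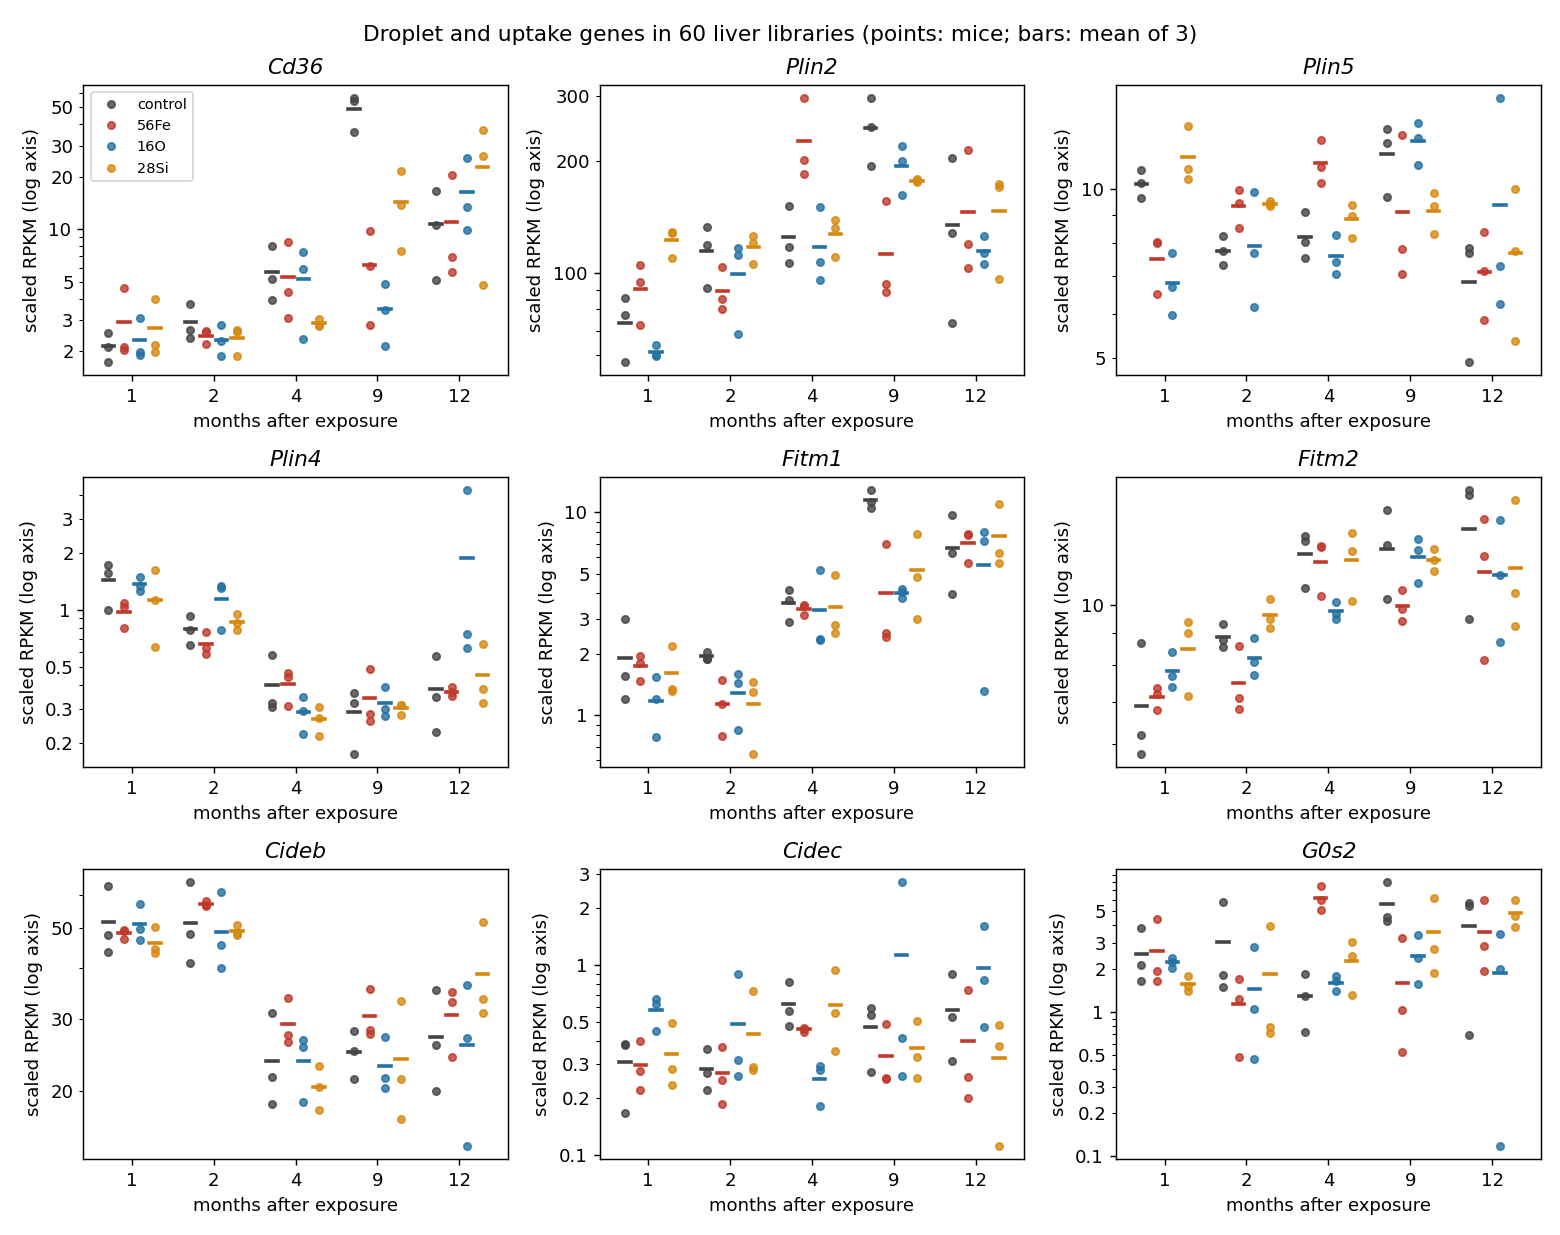
Level of 9 genes in scaled RPKM (log axis) against months after exposure, with 1 point per mouse and a bar at the mean of the 3 mice of a group. Cd36 and Fitm1 show 3 control mice at 9 months standing above the others of that time, at 36 to 56.4 and 10.5 to 12.9, while Cideb and Plin4 show higher levels at 1 and 2 months than at 4.

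The gene on which the choice rested most was Cd36. The 3 control mice of 9 months had 36, 54.6 and 56.4 scaled RPKM. The 56Fe mice of that time had 2.82, 6.15 and 9.74, the 16O mice 2.15, 3.44 and 4.84, and the 28Si mice 7.48, 13.7 and 21.7. All 9 irradiated mice thus lay below all 3 controls, and the 28Si group lay partly above the other 2 ion groups. On the log2 scale the differences from control were -3.08 (SE 0.38) for 56Fe, -3.82 (SE 0.28) for 16O and -1.85 (SE 0.36) for 28Si, and because these values chose the gene they carry no test. At 12 months, in other mice, controls had 5.13, 10.5 and 16.6 and the 28Si mice 4.75, 26.3 and 37.1, with overlap. No control mouse outside 9 months exceeded 16.6.

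Cd36 has several transcription starts, and its deposited transcripts fall into 3 pairs by where they begin on the minus strand of chromosome 5 (GRCm38; the gene spans chr5:17781690-17888801). The upstream pair starts at 17888747 and 17888801, the middle pair at 17849729 and 17849792, and the downstream pair at 17835696 and 17835717. In the 9-month controls the middle pair had 15.1, 27 and 29.1 scaled RPKM, or 42.1% to 53.3% of the gene. The upstream pair had 14.2, 18.9 and 21.5 and the downstream pair 6.58, 6.65 and 7.86, so all 3 start regions were higher in these mice than in any irradiated mouse of that time. The middle pair was at 1.01 to 1.64 after 56Fe, 0.112 to 1.16 after 16O and 4.30 to 10.7 after 28Si at the same time. At 1 and 2 months it was listed at 0 in some control mice. For transcripts with shared exons these levels depend on how the mapping divided the reads between them.

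**Figure D2:**
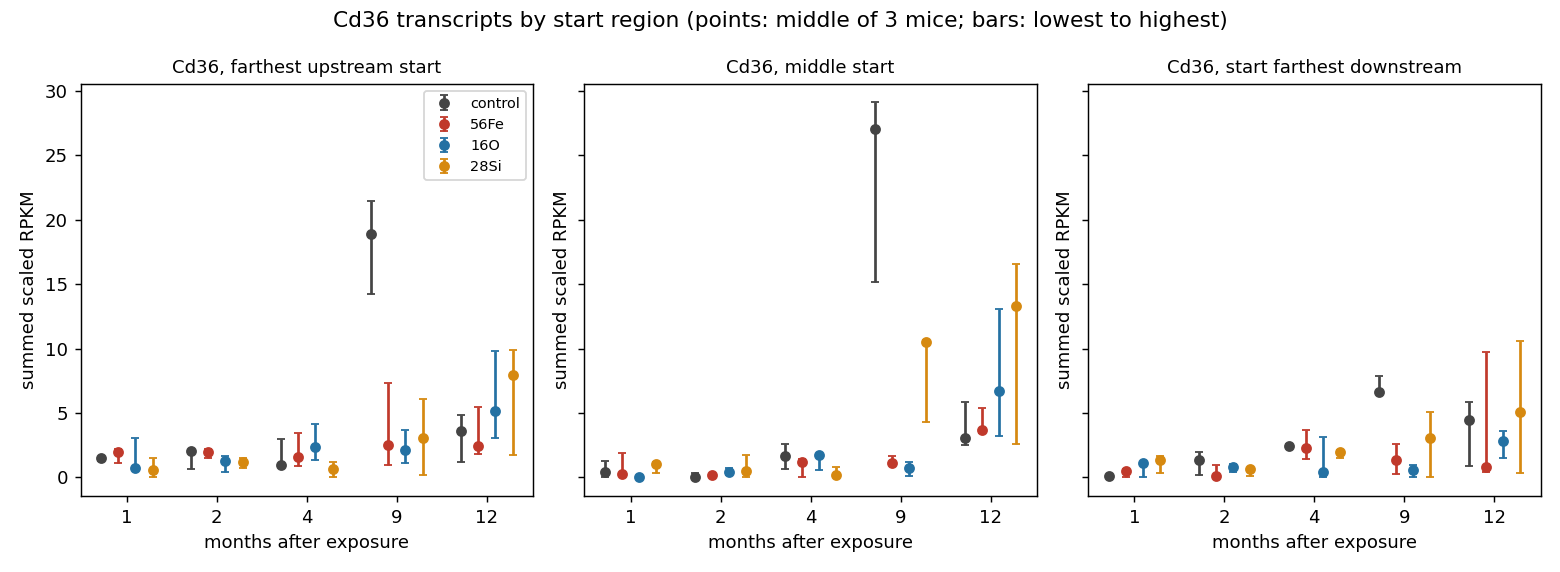
Scaled RPKM of the Cd36 transcripts grouped by the 3 start regions, against months after exposure, with points at the middle of the 3 mice and bars from the lowest to the highest. The 9-month controls are high in each region, with the middle starts at 15.1 to 29.1.

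Promoter windows of 3 of the genes are given to show the sequence around a start of each, from RefSeq on GRCm38.p6, each on the minus strand and 280 bases long. They are Cd36, at a RefSeq start just upstream of the downstream pair, whose own starts lie outside the window (chr5:17835867-17836146), Plin2 (chr4:86670030-86670309) and G0s2 (chr1:193273159-193273438). Capitals mark matches to AGGTCA, the hexamer bound by many nuclear receptors, on either strand, and to the E-box CACGTG.
Cd36: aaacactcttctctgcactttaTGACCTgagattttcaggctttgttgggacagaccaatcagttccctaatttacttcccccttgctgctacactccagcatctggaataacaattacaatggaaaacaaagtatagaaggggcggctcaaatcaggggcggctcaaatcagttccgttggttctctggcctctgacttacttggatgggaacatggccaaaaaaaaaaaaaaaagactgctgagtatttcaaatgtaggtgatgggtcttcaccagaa
Plin2: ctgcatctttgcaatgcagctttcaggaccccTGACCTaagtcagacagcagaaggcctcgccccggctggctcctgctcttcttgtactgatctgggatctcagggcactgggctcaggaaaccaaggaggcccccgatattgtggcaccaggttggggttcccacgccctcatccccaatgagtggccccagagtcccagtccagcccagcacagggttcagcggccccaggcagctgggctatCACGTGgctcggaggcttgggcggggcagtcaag
G0s2: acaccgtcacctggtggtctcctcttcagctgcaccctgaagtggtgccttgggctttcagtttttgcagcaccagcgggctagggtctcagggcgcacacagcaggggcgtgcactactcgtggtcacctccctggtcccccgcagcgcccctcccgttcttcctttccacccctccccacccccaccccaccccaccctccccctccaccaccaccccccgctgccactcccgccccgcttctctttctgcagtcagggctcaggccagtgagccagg
The hexamer AGGTCA was found in 4 of 11 promoter windows of 9 of the genes, against 15.3% of 32851 RefSeq promoters of the same length: in Cd36 at -228 and Plin2 at -218 from the start, both on the other strand, and in 2 windows of Plin5. Only Plin2 held CACGTG, at -4, a motif in 6.79% of all promoters. TATAAA, in 13.1% of all promoters, was in Cideb at -172, and neither TTANNTAA (5.79%) nor a direct repeat of AGGNCA hexamers spaced by 1 base (0.362%) was found in any of the 11. The G0s2 window held none of these letters.

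At 9 months Fitm1, the FIT protein of muscle that also appears in liver, gave the other wide separation. Its controls had 10.5, 11.3 and 12.9 scaled RPKM. The values were 2.43, 2.55 and 7.03 after 56Fe, 3.79, 4.04 and 4.22 after 16O, and 2.97, 4.81 and 7.82 after 28Si. No irradiated mouse reached the lowest control, with log2 differences of -1.67 (SE 0.35), -1.49 (SE 0.13) and -1.21 (SE 0.30). G0s2 had 4.31, 4.59 and 7.95 in the controls, 0.531, 1.03 and 3.24 after 56Fe, and 1.57, 2.36 and 3.43 after 16O. The 28Si mice, at 1.87, 2.76 and 6.16, overlapped with the controls. Plin2 had 195, 247 and 296 in the controls against 89.1, 93.6 and 156 after 56Fe (log2 difference -1.14, SE 0.23) and 176, 178 and 179 after 28Si (-0.43, SE 0.17), while the 16O mice, at 162, 200 and 219, overlapped.

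In the remaining droplet genes control and ion mice overlapped at 9 months. Differences were -0.36, 0.09 and -0.30 on the log2 scale for Plin5 after 56Fe, 16O and 28Si, -0.28, -0.02 and -0.02 for Fitm2, and 0.30, -0.10 and -0.08 for Cideb. For Cidec they were -0.40, 0.56 and -0.27, the value after 16O having an SE of 0.67. Of the 8 genes that passed the filter at that time, 4 had no overlap between ion and control mice after 56Fe, where 31.8% of all tested genes had none. The counts were 3 of 8 after 16O (20.7% of all genes) and 3 of 8 after 28Si (19.2%). Nothing is read from these counts, since the 9-month values chose the genes. The median difference of the 8 was -0.77, -0.21 and -0.36, with medians over all genes within 0.0139 of 0. Marker sums of other cells moved in part with these groups: the Kupffer cell markers were at 97.5 to 167 in controls and 134 to 226 after 56Fe, and the sinusoidal endothelial markers at 97.6 to 120 in controls, 81.3 to 101 after 56Fe and 81.5 to 82.0 after 16O. The red cell markers lay at 141 to 298 in controls and fully below that after 16O, at 107 to 118. Their part in the differences was not tested.

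**Figure D3:**
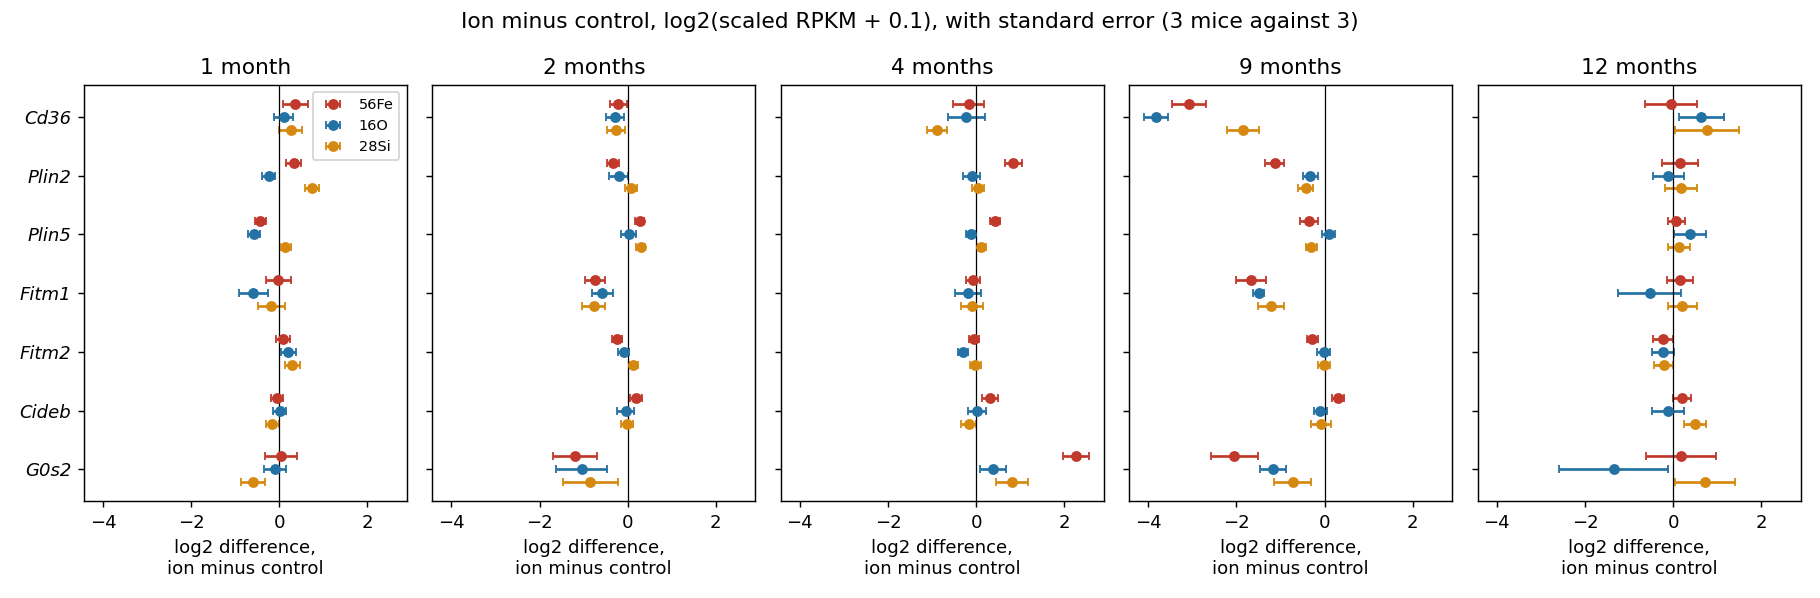
Difference of each ion from the controls of the same time, on the log2 scale with its standard error, for 7 genes at 5 times. The 9-month points, which chose the genes, reach -3.82 for Cd36 after 16O, and among the other times the point for G0s2 after 56Fe at 4 months stands at 2.26.

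The choice of the genes rested on the 9-month values, though earlier results of these data were known when the genes and lists were named. At 1, 2, 4 and 12 months each ion was tested against its 3 controls with limma over all genes that passed the filter. Of these 12 comparisons, 1 gave a member with an adjusted p of at most 0.05, namely G0s2 after 56Fe at 4 months. At 1 month 0 of 8 genes passed after each ion, where 1.18% of all genes passed after 56Fe, 1.6% after 16O and 0.244% after 28Si. At 2 months it was 0 of 8 each (0% of all genes, 0% and 0.0181%). At 4 months 1 of 9 passed after 56Fe (0.541% of all genes), 0 of 8 after 16O (0%) and 0 of 8 after 28Si (0.382%). At 12 months 0 of 8 passed after 56Fe (0%), 0 of 9 after 16O (0.00878%) and 0 of 8 after 28Si (0.0176%). Before adjustment, limma p was under 0.05 for 1, 1 and 1 genes at 1 month after 56Fe, 16O and 28Si. The counts were 4, 1 and 2 at 2 months, 3, 2 and 1 at 4 months, and 0 at 12 months. Over all tested genes they were 1402 of 11123, 1446 of 11083 and 1473 of 11045 at 1 month. At 2 months they were 1376 of 11083, 1073 of 11105 and 924 of 11079, and at 4 months 1384 of 11273, 690 of 11286 and 1388 of 11252. At 12 months they were 393 of 11442, 244 of 11395 and 877 of 11380.

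G0s2, the ATGL inhibitor, had 0.721, 1.28 and 1.85 scaled RPKM in the 4-month controls and 5.10, 5.99 and 7.47 in the 56Fe mice of that time. The 16O mice had 1.39, 1.64 and 1.77, and the 28Si mice 1.31, 2.46 and 3.05. The 56Fe group lay above all 9 other mice of 4 months, and the groups of 16O and 28Si overlapped with control. G0s2 rose by 2.26 (SE 0.29, 95% interval 1.60 to 2.93) on the log2 scale in limma, with an adjusted p of 0.022. The call was lost with all 60 libraries in the fit (adjusted p = 0.228) and when any 1 of the 3 56Fe mice was left out (adjusted p = 0.0574, 0.127 and 0.0799), though the difference stayed between 2.12 and 2.39 without each of those mice. Plin2 and Plin5 were also higher in these mice without passing the test. Plin2 had 185, 202 and 296 after 56Fe against 107, 118 and 152 (0.84, SE 0.19, adjusted p = 0.11 in limma). Plin5 had 10.2, 10.9 and 12.2 against 7.55, 8.05 and 9.08 (0.43, SE 0.11, adjusted p = 0.17). Both groups stood fully apart in these 2 genes. Cidec also stood apart, but lower, at 0.446 to 0.468 after 56Fe against 0.477 to 0.820 in controls (-0.35, SE 0.25, adjusted p = 0.62 in limma). With G0s2 this made 4 of 9 tested genes without overlap, where 17.5% of all tested genes had none.

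In the same 4-month comparison other genes of fat metabolism and of the clock passed. Of 34 tested PPARA targets 33 were higher after 56Fe and 2 rose, the fasting hormone Fgf21 (2.47, SE 0.21) and Pdk4, which restrains pyruvate oxidation (1.38, SE 0.23), where 0.541% of all genes passed, beside a median of 0.23 for the list and 0.0012 for all genes. Lpl, which frees fatty acids from lipoproteins, fell by 0.78 (SE 0.12), and Lpin1, a phosphatidate phosphatase on the way to triglyceride, fell by 0.91 (SE 0.11). The clock gene Arntl rose by 2.05 (SE 0.30) and Clock by 0.76 (SE 0.11). The mice had free access to food. The time of day at which the livers were taken is not given in the sources used here, and its part was not tested.

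Cd36 had 2.79, 2.80 and 3.04 scaled RPKM in the 4-month 28Si mice against 3.94, 5.2 and 8.0 in controls, with no overlap. It was 1 of 8 tested genes without overlap there, against 18.1% of all tested genes. The Cd36 difference of -0.89 (SE 0.22) had an adjusted p of 0.17 in limma, and on the RPKM as deposited, without rescaling, it was -1.06 with an adjusted p of 0.0029. The deposited scale keeps differences between whole libraries. In the rescaling over all 60 libraries, which gave the levels, replicate 2 of these 28Si mice was divided by 0.861 and the controls by 1.10 to 1.19. The tested fit was rescaled anew on its own 6 libraries, so these are not its divisors. The table held 56.0% of the mapped reads of that replicate and 80.0% to 84.1% of those of the controls. Lpl fell in these mice by 0.94 (SE 0.15) and Cd5l, a Kupffer cell gene, by 0.74 (SE 0.10). The Kupffer cell marker sum was 94.8 to 103 in them and 133 to 161 in the controls, and its part in the Cd36 level was not tested. After 56Fe and 16O at 4 months Cd36 overlapped with control, with differences of -0.17 (95% interval -0.99 to 0.64) and -0.22 (-1.17 to 0.73).

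At 1 month Plin5 and Plin2 separated the 28Si mice from those of 16O. Plin5 had 9.62, 10.2 and 10.8 in controls, 6.51, 8.01 and 8.03 after 56Fe, 5.98, 6.69 and 7.71 after 16O, and 10.4, 10.9 and 12.9 after 28Si. The 56Fe and 16O mice lay below all mice of the other 2 groups. Against control the differences did not pass in limma, at -0.43 (SE 0.13, adjusted p = 0.19) after 56Fe and -0.58 (SE 0.13, adjusted p = 0.066) after 16O. Plin2 had 57.7, 77.1 and 85.4 in controls, 72.6, 94.6 and 105 after 56Fe, 59.8, 60.1 and 64.1 after 16O, and 110, 129 and 129 after 28Si. The 28Si mice lay above all mice of the other 3 groups, and above control with a difference of 0.74 (SE 0.15, adjusted p = 0.12). Against control 1 of 8 tested genes had no overlap after each ion. Among all tested genes the shares were 17.7%, 18.6% and 17.3% after 56Fe, 16O and 28Si.

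Pairs of ions were compared in fits of the 12 libraries taken at 1 time. At 1 month Plin2 was lower after 16O than after 28Si by 0.99 (SE 0.16, adjusted p = 0.0012 in limma) and Plin5 by 0.74 (SE 0.13, adjusted p = 0.0030), which makes 2 of 8 genes where 13.8% of all genes passed. Plin5 was lower after 56Fe than after 28Si by 0.59 (SE 0.13, adjusted p = 0.015), 1 of 8 genes against 9.37% of all. Without replicate 1 of 56Fe or replicate 3 of 28Si that call was lost (adjusted p = 0.064 and 0.054). Between 56Fe and 16O 0 of 8 passed (0.199% of all genes). At 2 months 0 of 8 passed between 56Fe and 16O, 56Fe and 28Si, and 16O and 28Si, where 0.374%, 1.17% and 0.582% of all genes did. At 4 months it was 0 of 9 (0.0688%, 0.981% and 0.318%), the nearest being G0s2 at 1.88 between 56Fe and 16O (adjusted p = 0.055) and 1.44 between 56Fe and 28Si (adjusted p = 0.052). At 12 months 0 of 9 genes passed in each pair, as did 0% of all genes.

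The PPARA targets at 1 month are given beside these Plin5 values. After 56Fe 27 of 36 tested targets were lower than in control, 5 fell and 1 rose, where 1.18% of all genes passed, and the median difference was -0.14 for the list and 0.0021 for all genes. Cyp4a10, a fatty acid hydroxylase, fell by 1.93 (SE 0.30), Acot1, an acyl-CoA thioesterase, by 1.28 (SE 0.21), and Retsat and the peroxisomal enzyme Ehhadh by 0.81 (SE 0.13) and 0.80 (SE 0.11). The 1 gene of the list that rose was Ppara, the gene of the receptor itself, by 0.58 (SE 0.11). After 16O 29 of 36 were lower and 7 fell, where 1.6% of all genes passed (median -0.21 against -0.00049), among them Cyp4a14 by 3.07 (SE 0.31), Cyp4a10 by 2.32 (SE 0.34), Acaa1b by 1.34 (SE 0.13) and Acot1 by 1.32 (SE 0.18). In the 28Si mice 25 of 35 targets were higher and 0 passed, where 0.244% of all genes did (median 0.16 against -0.0082). Srebf1, a regulator of fat synthesis, fell there by 0.73 (SE 0.12), and of 18 tested clock genes 5 fell and 1, Arntl, rose by 1.87 (SE 0.18). The median of the clock list was -0.51, the clock genes summing to 177 to 191 scaled RPKM after 28Si and 266 to 314 in controls. The part of these shifts in the Plin2 and Plin5 levels was not tested.

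At 2 months Fitm1 was lower after every ion. Controls had 1.89, 1.90 and 2.06 scaled RPKM, the 56Fe mice 0.795, 1.14 and 1.49, the 16O mice 0.844, 1.44 and 1.60, and the 28Si mice 0.647, 1.31 and 1.46. All 9 irradiated mice were below all 3 controls, which are the same mice in the 3 comparisons. Of 8 tested genes 2, 1 and 2 had no overlap with control after 56Fe, 16O and 28Si. Among all tested genes the shares were 18.5%, 15.5% and 13.6%. The Fitm1 differences of -0.74 (SE 0.22), -0.57 (SE 0.24) and -0.77 (SE 0.27) did not pass, with adjusted p of 0.27, 0.50 and 0.50 in limma. The 7 red cell markers separated in the same way, summing to 99.9 to 112 in controls, 47.9 to 76.3 after 56Fe, 41.1 to 66.8 after 16O and 66.6 to 82.6 after 28Si, with list medians of -1.18, -1.32 and -0.47, and their part in the Fitm1 level was not tested. Plin5 was higher after 56Fe and 28Si, at 8.53 to 9.95 and 9.34 to 9.5 against 7.31 to 8.25, again without passing (adjusted p = 0.36 and 0.50). The PPARA targets went the other way, 31 of 33 tested being lower after 56Fe, 31 of 33 after 16O and 23 of 34 after 28Si. Their medians were -0.21, -0.22 and -0.061, against -0.0018, 0.0013 and 0.0027 for all genes. Of these targets 0 passed, as did 0%, 0% and 0.0181% of all genes, and their part in the Plin5 level was not tested.

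At 12 months the spread within groups was wide. Plin2 ran from 73.2 to 204 in controls, 103 to 214 after 56Fe, 106 to 126 after 16O and 96.4 to 174 after 28Si. Intervals of the differences were correspondingly broad, -0.78 to 1.10 for Plin2 after 56Fe and -0.88 to 2.43 for Cd36 after 28Si. The Kupffer cell marker sum varied as well, at 66.9 to 395 in controls and 90.3 to 631 after 56Fe. It was 85.2 to 534 after 16O and 83.1 to 176 after 28Si, and its part in these spreads was not tested. After 16O 1 of 9 tested genes had no overlap with control, against 7.84% of all tested genes. It was 0 of 8 after 56Fe (8.42%) and 28Si (13.2%). The 1 gene was Plin4. Among the comparisons with control at 12 months it passed the filter only in that of 16O, whose mice were high, so nothing is read from its separation. Plin4 had 0.632, 0.742 and 4.25 after 16O and 0.227, 0.348 and 0.572 in controls (1.61, SE 0.74, limma adjusted p = 0.99). The high value came from replicate 2, a library that also held the highest Plin5 of all 60 (14.5) and the lowest G0s2 (0.117) and Cideb (14.7), and without it the Plin4 difference was 0.78.

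Whether an ion's effect at 1 of these times differed from its mean effect at the other 3 was tested over all 60 libraries. None of the 9 genes passed in limma in any of the 12 tests, where 0.762%, 0.943% and 0.0157% of all genes passed at 1 month for 56Fe, 16O and 28Si. The shares were 0% for each ion at 2 months, 0.0236%, 0.0157% and 0% at 4 months, and 0.0157%, 0.0236% and 0.00785% at 12 months. The G0s2 effect of 56Fe at 4 months was 2.60 above its mean at the other times (SE 0.84, adjusted p = 0.51), and the Plin4 effect of 16O at 12 months 1.56 above (SE 0.42, adjusted p = 0.14). For Plin5 at 1 month it was -0.70 for 56Fe (adjusted p = 0.20) and -0.68 for 16O (adjusted p = 0.19). Among single transcripts of the 10 genes, 13 to 15 of which could be tested, 0 passed in the 12 comparisons. Few of all tested transcripts passed there either. At 4 months it was 0 of 23051 after 56Fe and 83 of 22390 after 28Si, the highest count of the 12, so nothing is read from this absence.

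Levels were then compared between times within each group of mice. Within control mice 6 of 9 genes differed between those 4 times by limma's F-test, as did 48.2% of all genes. The counts were 8 of 9 in 56Fe mice (54.8%), 4 of 9 in 16O mice (39.5%) and 6 of 9 in 28Si mice (55.5%). In a fit of controls that also held the 9-month mice, 0 of 9 genes changed between 1 and 2 months (0.572% of all genes). Between 2 and 4 months 4 of 9 changed (41.2%). Cd36 rose there by 0.90 (SE 0.34, adjusted p = 0.043) and Fitm1 by 0.82 (SE 0.29, adjusted p = 0.035), while Cideb fell by 1.12 (SE 0.22, adjusted p = 0.00097) and Plin4 by 0.86 (SE 0.33, adjusted p = 0.048).

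A contrast of 4 and 12 months against 1 and 2 months was added after the data had been seen. In controls 4 of 9 genes rose and 2 fell (55.3% of all genes changed), in 56Fe mice 5 rose and 2 fell (60.7%), in 16O mice 4 rose and 1 fell (51.5%), and in 28Si mice 4 rose and 3 fell (53.3%). Cd36 rose in all 4 groups, by 1.51 in controls and 1.34, 1.84 and 1.44 after 56Fe, 16O and 28Si (limma adjusted p = 0.00016, 0.0039, 0.00037 and 0.0048). Fitm1 rose by 1.27, 1.72, 1.52 and 1.80 and Fitm2 by 0.66, 0.62, 0.36 and 0.32, passing in each group. Cideb fell in each group, by 1.04, 0.84, 1.05 and 0.80, from 39.9 to 64.5 scaled RPKM at 1 and 2 months to 14.7 to 51.6 from 4 months on. Plin4 differed by -1.28, -0.90, -0.85 and -1.27, passing in all but the 16O mice (adjusted p = 0.081). On the RPKM as deposited the median of all genes was itself higher at the later times by 0.41 to 0.49, and relative to the deposited scale Cideb still fell in controls and 56Fe mice (by 0.55 and 0.33) but missed the threshold in 16O and 28Si mice (-0.58 and -0.37, adjusted p = 0.052 and 0.062).

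**Figure D4:**
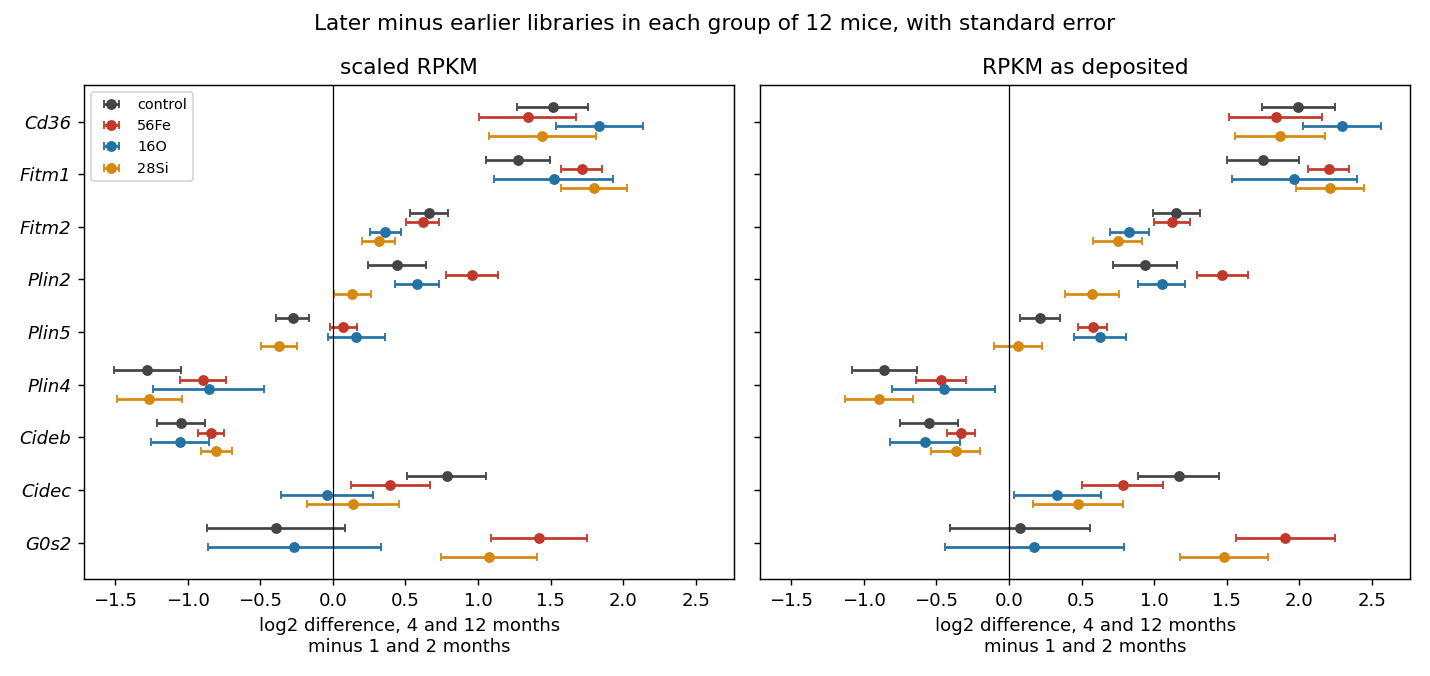
Mean of 4 and 12 months minus mean of 1 and 2 months on the log2 scale, with standard errors, for each gene and group of mice, after rescaling and on the RPKM as deposited. Cd36 and Fitm1 are above 0 and Cideb and Plin4 below 0 in all 4 groups on both scales, with the deposited values shifted upwards.

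Plin2, Plin5 and G0s2 were less uniform across the groups of mice in that contrast, although differences between the groups were not tested. Plin2 rose in 56Fe mice by 0.96 and in 16O mice by 0.58 (limma adjusted p = 0.00050 and 0.0080), and was 0.44 and 0.13 in control and 28Si mice (0.077 and 0.39). On the deposited RPKM it rose in all 4 groups, by 0.94 in controls, 1.47 after 56Fe, 1.05 after 16O and 0.57 after 28Si. G0s2 rose by 1.42 after 56Fe and 1.07 after 28Si (adjusted p = 0.0025 and 0.014), with -0.39 in controls and -0.27 after 16O, values that turned to 0.07 and 0.18 as deposited. Plin5 fell by 0.37 in 28Si mice (adjusted p = 0.020) and was -0.28 in controls (0.0504), but as deposited these values turned to 0.06 (adjusted p = 0.77) and 0.21 (0.19), and it rose by 0.58 in 56Fe and 0.63 in 16O mice. Cidec rose by 0.78 in controls (adjusted p = 0.024), and as deposited in controls and 56Fe mice, by 1.17 and 0.78. Time after exposure, age and the library properties that shifted between 2 and 4 months cannot be told apart here. Cideb carries a further limit, since 1136 of its 1488 exon bases (76.3%) are shared with Nop9 on the opposite strand and the strand of the reads is not given in the sources used here. Nop9 ran from 2.11 to 3.39 scaled RPKM at 1 and 2 months and from 2.88 to 4.82 later, a direction opposite to that of Cideb.

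The genes whose log2 levels followed each member most closely over the 60 libraries are given as a description, since the points share the time structure above. Cd36 was nearest to the class I histocompatibility gene H2-D1 (Pearson r = 0.82), Rtn4 (0.80) and the lysosomal protease Ctsl (0.80). Fitm1 followed Olfm3 (0.92), Pdk1 (0.90) and Gstm2 (0.89), and Fitm2 followed the fatty acid oxidation genes Acad11 (0.88) and Hadhb (0.86) and the mitochondrial transcription factor Tfb2m (0.87). Plin2 was nearest to Rab30 (0.84), Plin4 to Ccnl1 (0.89) and Cideb to Dnajb12 (0.94), Nfix (0.93) and Nfic (0.92). Lower values were found for Plin5 with Fpgs (0.69), G0s2 with Slc17a8 (0.71) and Cidec with Blzf1 (0.61). Between members, Cd36 and Fitm1 had an r of 0.77 over all libraries and 0.21 after the group means were removed, whereas Plin2 and Plin5 had 0.52 and 0.57.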

How the data were processed

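Liver RNA of 60 mice was sequenced after ribosome depletion, 3 mice in each of 20 groups, and groups, times and replicate numbers were taken from the labels. The authors cut 14 bases off the start of each read, mapped the reads to GRCm38 (annotation 97, length and similarity fraction 95%) with CLC Genomics Workbench 12.0.3, and tested raw counts with edgeR; what they deposited is RPKM for 123811 transcripts, with columns of group means that were not used. No genome-wide counts were used here, and DESeq2 and edgeR were not run.

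The 10 genes and all gene lists were chosen with earlier results of these data known. Differences at 9 months, between ions or from the neighbouring times, were therefore described without a test, and the planned F-test over all 5 times is not reported. Transcript RPKM were summed per gene and rescaled by an unweighted trimmed mean (30% of M and 5% of A values), genes reaching 0.5 RPKM in 3 or more of the fitted libraries entered the test, and limma 3.58.1 (R 4.3.3) was run on log2(RPKM + 0.1) with trended empirical Bayes, two-sided, with Benjamini-Hochberg adjustment over all genes tested. Fold changes are on that scale and understate changes of low genes. A gene was said to rise or fall at an adjusted p of at most 0.05. The fits held 6 libraries for an ion and its controls, and 12 for pairs of ions at 1 time. They held 12 for the times of a group without 9 months, 15 for neighbouring times in controls and all 60 for effects between times. The fit for neighbouring times held the 9-month controls, which thus entered its filter, rescaling and estimate of spread. The contrast of later with earlier times and the test without 9 months were added after the data had been seen, as was the choice of genes near the threshold whose values under the alternatives are given.

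All members were named. Of the other lists, up to 4 genes with the largest fold among those that passed were named per list and comparison, and the 3 genes most correlated with each member were computed. Depth was recovered from the steps between low values of genes with 1 transcript: of values up to 30 reads, 99.8% to 100.0% were within 0.02 of a whole number. The spread between mice sets the p-values, and read floors cover counting error only. The highest Spearman correlation of a library pair was 0.991. Positions and gene types came from GENCODE M21, which matched 123380 transcripts, 122227 with the same gene name. All 3 replicate-number pairs correlated above 0.1 in 1 of 15 comparisons, and no source says that the numbers pair mice. The fits were tested on simulated data. Alternatives were RLE scaling, the deposited RPKM, other filters and pseudocounts, other libraries in the fit, the replicate block, limma-voom on estimated reads, protein-coding transcripts alone and leaving out each library.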

Additional observations from a re-analysis of the deposited data

Results flagged for a closer look

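In 3 cases every mouse of an ion lay on one side of its controls at 1 time and every mouse of the same ion on the other side at 9 months. Plin2 after 28Si was 0.74 above control on the log2 scale at 1 month and -0.43 at 9 months. Plin2 after 56Fe was 0.84 at 4 months and -1.14 at 9 months, and G0s2 after 56Fe was 2.26 at 4 months and -2.05 at 9 months. The difference between the times was not tested, because the 9-month values chose the genes. Among all tested genes 17.3% had no overlap with control after 28Si at 1 month and 19.2% at 9 months. After 56Fe the shares were 17.5% at 4 months and 31.8% at 9 months. How many of all genes changed sides in this way is not given here, and nothing is read from the count of cases. The controls of the times differ too, with Plin2 at 107 to 152 scaled RPKM at 4 months and 195 to 296 at 9 months, and G0s2 at 0.721 to 1.85 and 4.31 to 7.95. The 56Fe mice spanned 185 to 296 and 89.1 to 156 for Plin2, and 5.10 to 7.47 and 0.531 to 3.24 for G0s2.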

How the results depend on the processing

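Most values kept their direction and side of the threshold. The counts below are of the described genes alone. The shares of all genes that passed in the same alternative fits are not given here, so these counts cannot be weighed against them. For 56Fe at 4 months the count fell to 0 of the genes with 60 libraries in the fit (G0s2 2.25), and G0s2 ranged from 1.93 to 2.55 and the count from 0 to 1 when 1 library was left out. Plin5 after 16O at 1 month passed with 12 libraries in the fit, with limma-voom and with the replicate block (1 gene each, adjusted p = 0.036, 0.029 and 0.038), and Plin2 after 28Si at 1 month with 12 libraries (1 gene, adjusted p = 0.043) and without control replicate 3 (0.85, adjusted p = 0.043), the count ranging from 0 to 1 over the left-out libraries. On the deposited RPKM Cd36 after 28Si at 4 months passed (1 gene), and with 60 libraries Plin4 after 16O at 12 months did (1 gene, 1.59, adjusted p = 0.048). Between ions, leaving out 1 library gave 0 to 1 genes for 56Fe against 28Si at 1 month, 0 to 2 for 56Fe against 16O and 0 to 1 for 16O against 28Si at 2 months, and 0 to 1 for 56Fe against 28Si at 4 months. At 4 months G0s2 passed between 56Fe and 16O with a pseudocount of 1 or 6 libraries (1 gene each), and between 56Fe and 28Si 1 gene passed with that pseudocount and 2 with 6 libraries. In the contrast of later with earlier times, with 4 months alone as the later time 2 genes rose in 16O mice, 2 fell in 16O mice and 2 rose in 28Si mice; on the deposited RPKM 0 fell in 16O and 1 in 28Si mice. At 9 months the 56Fe difference was -2.61 for Cd36 without 56Fe replicate 2, and -2.15 for Fitm1 and -2.71 for G0s2 without 56Fe replicate 3. The cause was not tested in these cases. The replicate block changed no other call, and the numbers are not known to pair mice. At this depth Cidea and, with a median of 9 reads, Cidec allow no firm statement.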

Other observations

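Cidec and Cidea each had a library that stood apart. Cidec was 2.72 scaled RPKM in 1 of the 3 16O mice of 9 months, where the other 2 had 0.262 and 0.413. Cidea reached 0.739 in 1 28Si mouse of 9 months (12 reads), and the other 2 mice of that group were at 0. The 56Fe mice of 12 months formed the 1 group in which all 3 libraries held Cidea reads, at 0.0534, 0.0998 and 0.127 scaled RPKM, which is at the level of a few reads.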
